A study of Mus musculus with 4 samples.

Results

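Neurotrophin and GDNF (glial cell line-derived neurotrophic factor) family signalling was followed through 9 genes in the RNA of sorted *Hmx3-Cre*-labelled embryonic cells of *Dnmt1* WT and *Dnmt1* KO genotype. The genes were the ligands *Bdnf*, *Ntf3* and *Gdnf* and the receptors *Ntrk2*, *Ntrk3*, *Ngfr*, *Ret*, *Gfra1* and *Gfra2*. They were found by matching Ensembl identifiers to these symbols in GENCODE mouse release M21, and all 9 were among the 55573 identifiers listed for each library. The cells were tdTomato-positive cells that were sorted by fluorescence from E16 embryos on a C57BL/6J background, from tissue that the labels give as basal telencephalon and the methods as its preoptic area (POA). All embryos carried *Hmx3-Cre* and a *tdTomato* reporter, so that recombination and the red label were limited to cells in which the *Hmx3* driver is or was active, which include post-mitotic cells of the POA. The *Dnmt1* WT cells were wild type for *Dnmt1*, and the *Dnmt1* KO cells carried the floxed *Dnmt1* loxP2 allele, part of which Cre removes. Each genotype had 2 libraries, and cells were pooled over 12 WT and 6 KO embryos. The labels call the libraries biological replicates and the methods call them technical duplicates, so that SDs and p-values here measure the spread between libraries, which may be technical.

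Neurotrophins are secreted growth factors that act through Trk receptor tyrosine kinases. BDNF binds TrkB, encoded by *Ntrk2*, and the product of *Ntf3* binds mainly TrkC, encoded by *Ntrk3*. All neurotrophins, and their uncleaved precursors, also bind the receptor encoded by *Ngfr*. GDNF signals through a complex of the tyrosine kinase RET with a membrane-anchored co-receptor, which is GFRalpha1 for GDNF itself and GFRalpha2 for its relative neurturin. In the developing forebrain BDNF and GDNF act on the migration and differentiation of cortical interneurons. TrkB also exists as a truncated form without kinase domain, which is the main form in astrocytes.

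Library totals ranged from 8075102 to 9995968 reads, so that 3 reads corresponded to 0.294 to 0.372 CPM (counts per 1000000 reads of the TMM-scaled library size). Replicates differed by more than sampling noise in both genotypes, with a chi-square per degree of freedom of 65.4 for WT and 4.57 for KO, and each library was kept as a sample. *Dnmt1* itself had 3103 and 4557 reads in WT against 2383 and 2552 in KO. The KO libraries were the lower ones, with a log2 fold change of -0.56 ± 0.14 (SE, edgeR adjusted p = 0.0511), in a count over the whole gene that includes reads outside the deleted part. Neuronal markers, general ones beside those of GABAergic and POA neurons, were present in every library. They summed to between 3834 and 3978 CPM in WT and between 2861 and 2957 CPM in KO. Much of this came from the general neuronal genes *Tubb3* and *Dcx*, with means of 1648 and 766 CPM in WT and 1189 and 464 CPM in KO. The WT libraries were apart for both, with 1420 and 1876 CPM for *Tubb3* and 1011 and 521 CPM for *Dcx*. Markers of oligodendrocyte precursors were also present in every library and summed to between 1488 and 1558 CPM in WT, so that the sorted cells did not carry neuronal transcripts alone.

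Both families are built from duplicated genes, and the sequences printed here show how far reads can be assigned to single members. The longest stretches that coding sequences of close relatives share without a mismatch are given 5′ to 3′ from GENCODE M21 transcripts, because a read confined to such a stretch would match both genes.
*Ntrk2* and *Ntrk3*: gacccactcatcatggtctttga
*Gfra1* and *Gfra2*: actgccgctgcaagcggggcatgaagaa
*Bdnf* and *Ntf3*: atagacacttcctgtgt
The run shared by *Ntrk2* and *Ntrk3* has 23 bases and lies at positions 1828 to 1850 of a *Ntrk2* coding sequence of 2463 bases, counted from its first base. That of *Gfra1* and *Gfra2* has 28 bases, from position 257 to 284 of a *Gfra1* coding sequence of 1404 bases, and that of *Bdnf* and *Ntf3* has 17 bases. A read longer than these runs that lies within the coding sequence holds at least 1 base that tells the genes apart, while the read length is not given in the sources used here.

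Promoter windows of 300 bases, 250 before and 50 after a RefSeq start site on GRCm38.p6, were found for 6 of the 9 genes, with 14 start sites in all. *Ntrk3*, *Gfra2* and *Ret* had none in the table. The windows of *Ntrk2*, *Ngfr* and *Gfra1* are shown because these 3 receptors were abundant enough to be compared between genotypes and have 1 listed start each. They are written 5′ to 3′ on the strand of the gene, and the capitals mark CpG, the dinucleotide in which DNMT1 methylates cytosine.
*Ntrk2* (chr13:58806319-58806618, plus strand): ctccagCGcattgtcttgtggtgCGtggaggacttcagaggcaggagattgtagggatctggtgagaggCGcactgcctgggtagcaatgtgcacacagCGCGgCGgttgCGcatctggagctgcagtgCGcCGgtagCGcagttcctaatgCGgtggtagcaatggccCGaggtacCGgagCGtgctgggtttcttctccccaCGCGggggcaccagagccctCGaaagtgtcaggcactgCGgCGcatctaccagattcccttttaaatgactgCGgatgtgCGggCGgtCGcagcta
*Ngfr* (chr11:95587649-95587948, minus strand): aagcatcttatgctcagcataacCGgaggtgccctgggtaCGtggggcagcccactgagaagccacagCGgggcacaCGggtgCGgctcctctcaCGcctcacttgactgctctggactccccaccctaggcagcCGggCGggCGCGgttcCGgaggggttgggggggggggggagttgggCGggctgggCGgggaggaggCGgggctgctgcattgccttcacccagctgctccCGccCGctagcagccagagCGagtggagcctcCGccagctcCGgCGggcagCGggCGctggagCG
*Gfra1* (chr19:58455349-58455648, minus strand): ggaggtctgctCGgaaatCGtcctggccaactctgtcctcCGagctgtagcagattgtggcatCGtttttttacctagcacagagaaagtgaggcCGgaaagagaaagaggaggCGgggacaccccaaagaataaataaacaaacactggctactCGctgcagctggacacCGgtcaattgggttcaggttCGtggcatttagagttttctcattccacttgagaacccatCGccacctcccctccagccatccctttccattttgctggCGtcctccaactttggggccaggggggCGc
The windows of *Ntrk2* and *Ngfr* held 23 CpG each, more than 78.5% of the 32851 windows in the table, and that of *Gfra1* held 12, against a median of 7 over all windows. The 7 windows of *Bdnf* held 2 to 13 CpG, the pair of *Ntf3* windows 12 and 17, and the pair of *Gdnf* windows 11 and 22. The letters GGGCGG on either strand, the core of a GC box, occurred once in the *Ntrk2* window, 4 times in that of *Ngfr* and not in that of *Gfra1*, while 35.7% of all windows held them. TGACGTCA, a full cAMP response element, was in none of the 14 windows and in 1.79% of all windows. These letters describe the windows only, and DNA methylation was not analysed here.

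The receptors were expressed, and the ligands were close to the limit of detection. In order of their level per kilobase of merged exons, the WT libraries gave *Gfra2* with 12.5 ± 0.666 CPM per kb (SD, n = 2), *Ntrk2* with 10.3 ± 0.321, *Gfra1* with 9.48 ± 1.08 and *Ntrk3* with 5.41 ± 0.498. *Ngfr* with 1.45 ± 0.163 and *Ret* with 1.14 ± 0.360 CPM per kb formed a lower tier. The ligands *Ntf3*, *Bdnf* and *Gdnf* were at 0.301, 0.136 and 0.0507 CPM per kb. *Ntrk2* and *Gfra1* differed by less than the spread between libraries, as did *Ngfr* and *Ret*, and the ligands could not be ordered.

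In KO, *Ntrk2* led with 19.6 ± 0.0682 CPM per kb, followed by *Gfra1* with 11.4 ± 1.85 and *Gfra2* with 10.9 ± 0.725, which overlapped. The order within the upper tier depends on the length used. Per kilobase of the longest coding sequence, a choice made after the values were seen, *Ntrk2* led in WT with 80.4 CPM per kb, before *Ntrk3* with 63.0, *Gfra1* with 37.0 and *Gfra2* with 31.9. The lower tier stayed below the upper one under both lengths, with *Ngfr* at 3.90 and *Ret* at 2.30 CPM per kb of coding sequence.

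**Figure D1:**
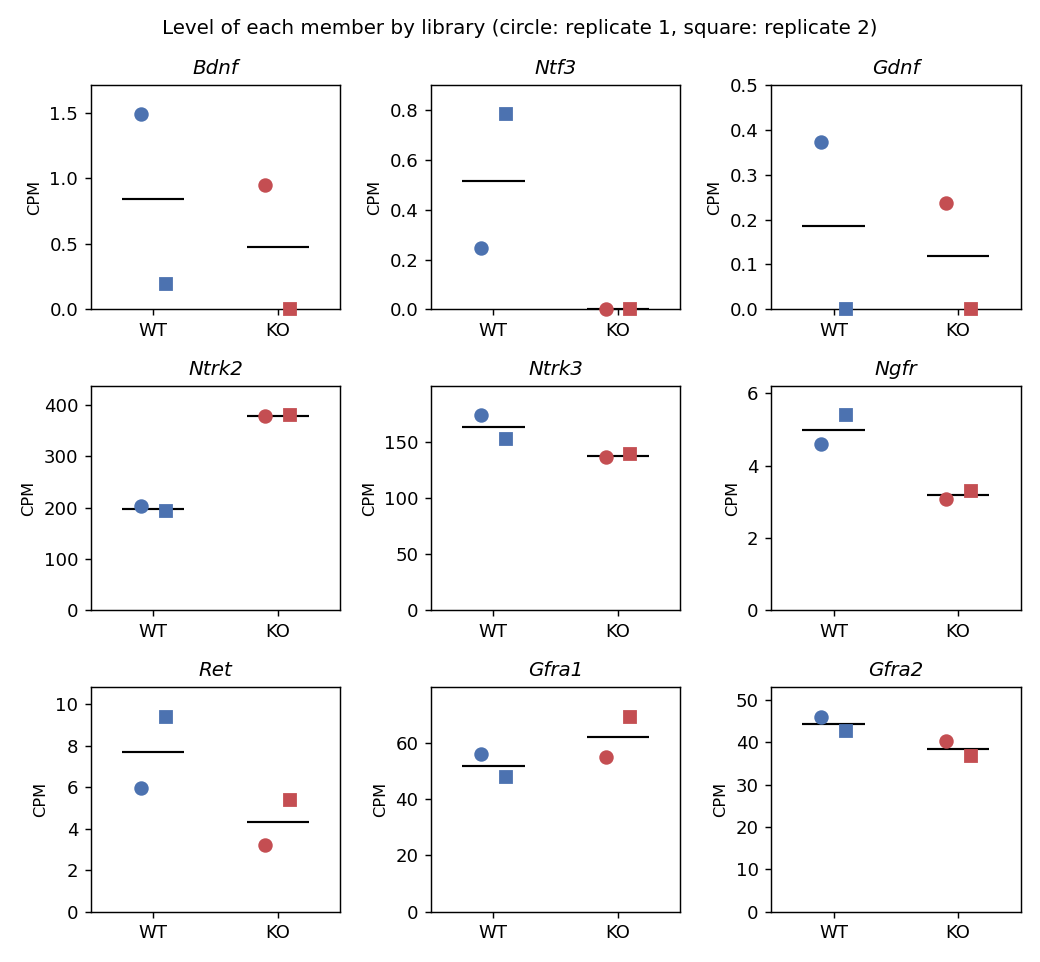
Level of each of the 9 genes in CPM (vertical axes, each from 0) in the WT libraries (blue) and KO libraries (red), with circles for replicate 1, squares for replicate 2 and a black line at the mean of each genotype. *Ntrk2* sits near 198 CPM in WT and 378 CPM in KO, while no library exceeds 1.49 CPM for *Bdnf*, *Ntf3* or *Gdnf*.

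Of the 9 genes, 6 passed the expression filter and were tested, all of them receptors, and 1 of these, *Ntrk2*, was called changed between the genotypes (edgeR adjusted p under 0.05). In the whole table of 16832 tested genes 7.9% were called, 7.33% as higher and 0.57% as lower in KO. None of the 6 receptors was called lower with edgeR, DESeq2 or limma-voom, and 0 of those with a lower mean had an unadjusted edgeR p under 0.05. The median log2 fold change of the 6 receptors was -0.22, beside -0.03 over all genes tested. KO and WT libraries did not overlap in 5 of the 6, beside 53.5% of all genes tested.

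*Ntrk2*, the receptor for BDNF, was read 1631 and 1977 times in WT and 3172 and 3441 times in KO, which corresponded to 202 and 194 CPM in WT and 377 and 379 CPM in KO. Libraries of the same genotype were close together, and the KO values lay far above those of WT. The level was thus 1.91-fold higher in KO (log2 fold change 0.93 ± 0.13 SE, 95% interval 0.63 to 1.24, edgeR adjusted p = 0.00353). Leaving out any 1 library kept the log2 fold change between 0.89 and 0.96. In GRCm38, the build of all positions here, the gene spans 58806569 to 59133970 of chromosome 13 (plus strand). Its 10 annotated transcripts include 7 with a coding sequence, of 1398 to 2463 bases, and counts per gene do not tell the full-length receptor from its truncated form.

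Genes annotated within the span of *Ntrk2* were examined because their reads and intronic reads of *Ntrk2* can fall on the same bases. None of the 4 shares an exonic base with *Ntrk2*. *C630044B11Rik*, on the same strand at 58812153 to 58814363, had 12 and 15 reads in WT against 59 and 90 in KO (log2 fold change 2.51 ± 0.40 SE, edgeR adjusted p = 0.00608). *Gm47423*, on the opposite strand at 58824218 to 58826994, had 8 and 1 reads in WT against 47 and 61 in KO (log2 fold change 3.56 ± 0.72 SE, edgeR adjusted p = 0.0207). Both lie near the 5′ end of *Ntrk2* and rose with it. Further downstream, *Gm34245* had 33 and 30 reads in WT against 31 and 29 in KO (log2 fold change -0.03 ± 0.42 SE, edgeR adjusted p = 0.983), and *4930415C11Rik* had 7 to 11 reads per library and was not tested.

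Markers of other cell types moved with *Ntrk2*. All 12 astrocyte markers were called higher in KO, and they summed to between 262 and 277 CPM in WT and between 3786 and 3987 CPM in KO, with *Gfap* and *Agt* at 0 reads in both WT libraries. Of the 8 mural cell markers 7 were called higher (63.1 to 72.1 CPM in WT and 419 to 424 CPM in KO, with *Acta2* at 0 in WT), as were 7 of the 8 oligodendrocyte markers (130 to 154 CPM in WT and 560 to 580 CPM in KO, with *Opalin* at 0 in WT). Of the 6 oligodendrocyte precursor markers 1, *Olig2*, was called higher, and their sum lay between 1888 and 1999 CPM in KO.

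Among the 6 endothelial markers *Slco1c1* was called higher, with 11 and 8 reads in WT against 1044 and 1105 in KO, and the list summed to 16.6 to 17.3 CPM in WT and 137 to 139 CPM in KO. Without it the list did not move as one: log2 fold changes were 1.11 for *Flt1*, 0.11 for *Pecam1*, -0.84 for *Kdr* and -1.46 for *Cldn5*, none of them called, and *Cdh5*, with 8 to 11 reads per library, was not tested. The microglial list, with 1 of 5 tested genes called higher (*Csf1r*), summed to 23.7 to 28.7 CPM in WT and 43.0 to 52.4 CPM in KO. The meningeal fibroblast list, with 1 of 3 tested genes called higher (*Foxc1*), summed to 22.6 to 23.0 CPM in WT and 34.6 to 34.8 CPM in KO. None of the 10 neuronal markers was called in either direction, with a median log2 fold change of -0.34. All were negative, from -0.72 for *Dcx* to -0.03 for *Hmx3*. At an unadjusted edgeR p under 0.05, *Slc32a1*, *Dlx5*, *Tubb3*, *Dcx* and *Hmx2* were lower, beside 8.01% of all genes tested. The part of these cell types in the rise of *Ntrk2* was not tested. In bulk RNA, more cells of a type and more RNA per cell cannot be told apart.

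**Figure D2:**
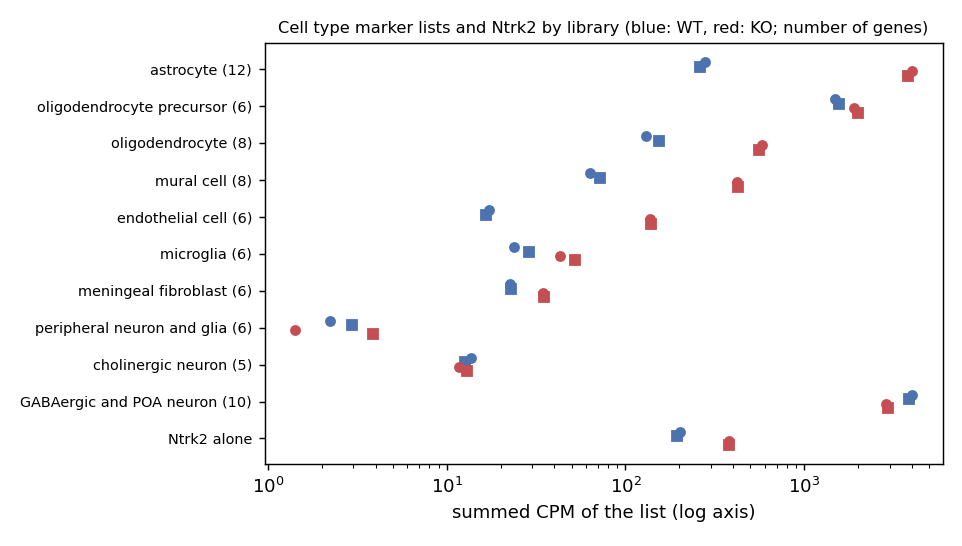
Summed CPM of each cell type marker list (horizontal log axis, number of genes in brackets) and of *Ntrk2* alone in each library, in blue for WT and red for KO, with circles for replicate 1 and squares for replicate 2. The astrocyte list is at 262 to 277 CPM in WT and at 3786 to 3987 CPM in KO, while the neuronal list is at 3834 to 3978 CPM in WT and 2861 to 2957 CPM in KO.

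*Ntrk3*, the receptor for the product of *Ntf3*, was read 1401 and 1558 times in WT and 1148 and 1266 times in KO, or 174 and 153 CPM in WT against 136 and 139 CPM in KO. The KO libraries lay just below the WT libraries, which were further apart from each other than the KO libraries were. A change was not detected (log2 fold change -0.24 ± 0.14 SE, 95% interval -0.57 to 0.09, edgeR adjusted p = 0.354). The gene lies on chromosome 7 from 78175959 to 78738012 on the minus strand. Of the 4 genes annotated within its span 3 were tested and none was called, with edgeR adjusted p values from 0.425 to 0.839.

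The balance of both Trk receptors can be read within a library, where no scaling between libraries enters. The WT libraries had 1.16 and 1.27 *Ntrk2* reads per *Ntrk3* read, the KO libraries 2.76 and 2.72, so that the ratio was 2.25-fold higher in KO. The ratio of *Ngfr* to *Ntrk2* reads was 0.0227 and 0.0278 in WT and lower, with 0.00820 and 0.00872, in KO.

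*Ngfr* encodes the receptor that all neurotrophins share and that is typical of basal forebrain cholinergic neurons and of neural crest derivatives. It was read 37 and 55 times in WT and 26 and 30 times in KO, or 4.59 and 5.39 CPM in WT against 3.09 and 3.30 CPM in KO. The KO libraries were the lower ones, but at these counts a log2 fold change of -0.64 came with an SE of 0.37 (95% interval -1.51 to 0.22, edgeR adjusted p = 0.352). The gene lies on chromosome 11 from 95568818 to 95587735 on the minus strand. The 5 cholinergic markers summed to 12.7 to 13.7 CPM in WT and 11.8 to 13.0 CPM in KO, and none of the 3 that could be tested was called. These 3 did not move as one, with log2 fold changes of -1.28 for *Slc5a7*, -0.24 for *Gbx1* and 0.48 for *Lhx8*. *Slc5a7* had 33 and 27 reads in WT against 11 and 13 in KO. *Chat* and *Slc18a3*, with 0 to 9 reads per library, were not tested. The 6 markers of peripheral neurons and glia summed to 2.23 to 2.94 CPM in WT and 1.43 to 3.85 CPM in KO, and the 1 that could be tested, *Avil*, was not called.

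*Ret*, the kinase of the GDNF receptor complex, was read 48 and 96 times in WT and 27 and 49 times in KO. On the CPM scale these were 5.96 and 9.41 in WT and 3.21 and 5.40 in KO, so that the groups did not overlap but the higher KO library came close to the lower WT library. The log2 fold change of -0.84 ± 0.40 (SE, 95% interval -1.75 to 0.08, edgeR adjusted p = 0.254) turned on single libraries. Without WT replicate 1 it was -1.13 and *Ret* was called lower in KO (edgeR adjusted p = 0.0120). Without WT replicate 2 it was -0.47 (edgeR adjusted p = 0.474), without KO replicate 1 it was -0.50 (edgeR adjusted p = 0.815), and without KO replicate 2 it was -1.26 (edgeR adjusted p = 0.325). *Ret* lies on chromosome 6 from 118151745 to 118197718 on the minus strand.

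*Gfra1*, the co-receptor for GDNF on chromosome 19 (58235604 to 58455909, minus strand), was read 452 and 487 times in WT and 463 and 630 times in KO. It reached 56.1 and 47.7 CPM in WT and 55.0 and 69.4 CPM in KO, and was the only tested member in which the groups overlapped. It was not called (log2 fold change 0.26 ± 0.18 SE, 95% interval -0.14 to 0.67, edgeR adjusted p = 0.414). *Gfra2*, the co-receptor for neurturin on chromosome 14 (70890120 to 70979838, plus strand), was read 371 and 436 times in WT and 339 and 333 times in KO, or 46.1 and 42.7 CPM in WT against 40.3 and 36.7 CPM in KO. The KO libraries were slightly below the WT libraries, and the gene was not called (log2 fold change -0.21 ± 0.16 SE, 95% interval -0.57 to 0.16, edgeR adjusted p = 0.483). The upper bounds of both intervals lie below the estimate for *Ntrk2*, but the *Gfra1* interval overlaps that of *Ntrk2*, which starts at 0.63. Differences between receptors were not tested.

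Within libraries, there were 1.22 and 1.12 *Gfra1* reads per *Gfra2* read in WT and 1.37 and 1.89 in KO. Per *Ret* read there were 9.42 and 5.07 *Gfra1* reads in WT and 17.1 and 12.9 in KO. Both ratios were higher in each KO library than in each WT library, but the KO libraries were further apart from each other than the lower of them was from the nearest WT library. These ratios were not tested.

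**Figure D3:**
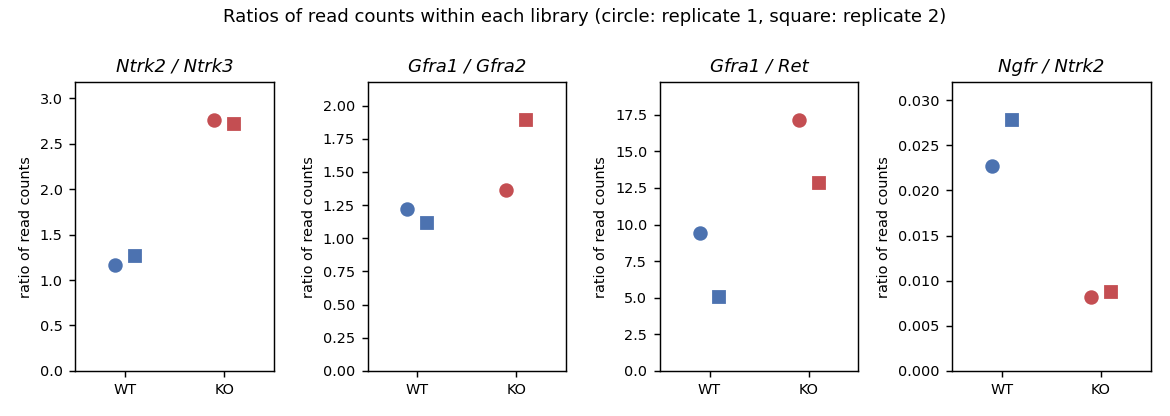
Ratio of the read counts of 4 pairs of receptor genes within each library (vertical axes, each from 0), in blue for WT and red for KO, with circles for replicate 1 and squares for replicate 2. The *Ntrk2* to *Ntrk3* ratio is 1.16 and 1.27 in WT and 2.76 and 2.72 in KO, and the *Gfra1* to *Gfra2* ratio lies at 1.37 and 1.89 in the KO libraries.

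The 3 ligands did not pass the expression filter, and their counts are given without a call. *Bdnf*, on chromosome 2 from 109674700 to 109727007, was read 12 and 2 times in WT and 8 and 0 times in KO. Each genotype had 1 library with most of the reads, so the groups overlapped. Summed over a genotype, *Bdnf* was at 0.767 CPM in WT (95% exact Poisson interval 0.419 to 1.29) and 0.457 CPM in KO (0.197 to 0.901), intervals that cover counting error only. The antisense gene *Gm45346*, which covers 14.4% of the exonic bases of *Bdnf*, had 0 reads in every library.

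*Ntf3*, on chromosome 6 from 126101412 to 126166910, was read 2 and 8 times in WT and not at all in KO. Summed over a genotype this was 0.548 CPM in WT (95% exact Poisson interval 0.263 to 1.01) and 0 CPM in KO, where the same interval reaches up to 0.211 CPM and 3 reads over the group would be 0.172 CPM. Of the 10 WT reads 8 are from replicate 2, and without a filter on low counts *Ntf3* was not called (edgeR adjusted p = 0.332). *Gdnf*, on chromosome 15 from 7810846 to 7837575, was read 3 and 0 times in WT and 2 and 0 times in KO, at or below the limit of 3 reads in both genotypes. Without a filter on low counts neither *Bdnf* nor *Gdnf* was called (edgeR adjusted p = 0.799 and 0.942).

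The other genes of both pathways were read from lists. Of 24 further genes of neurotrophin signalling 21 were tested, of which 2 were called higher and 0 lower in KO by edgeR, with a median log2 fold change of -0.14. Of 15 further genes of GDNF family signalling 9 were tested, of which 1 was called higher and 0 lower, with a median of -0.11. Over both lists 5 genes were higher and 4 were lower at an unadjusted edgeR p under 0.05, beside 14.6% and 8.01% of all genes tested, while DESeq2 called 1 gene lower and limma-voom 0. In all, 3 of 30 tested genes were called, beside 7.9% of all genes tested.

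The called genes encode a sorting receptor of each family and a Trk adaptor. *Sorl1*, whose product is a sorting receptor that binds GDNF and GFRalpha1, had 529 and 725 reads in WT against 1063 and 1123 in KO (log2 fold change 0.87 ± 0.14 SE, edgeR adjusted p = 0.00746). *Shc3*, whose product is a neuronal adaptor of activated Trk receptors, had 395 and 551 reads in WT against 749 and 817 in KO (log2 fold change 0.80 ± 0.14 SE, edgeR adjusted p = 0.0118). *Sorcs2*, whose product binds the precursors of neurotrophins together with the *Ngfr* receptor, had 516 and 738 reads in WT against 889 and 1055 in KO (log2 fold change 0.70 ± 0.15 SE, edgeR adjusted p = 0.0266). For each of the 3 genes the KO libraries were above the WT libraries. None of the 3 passed without KO replicate 1, where the log2 fold changes were 0.87, 0.82 and 0.78 in the order named (edgeR adjusted p = 0.0518, 0.0864 and 0.108). *Sorl1* alone passed without KO replicate 2 (log2 fold changes 0.89, 0.79 and 0.64, edgeR adjusted p = 0.0417, 0.0987 and 0.312). *Sorcs2* also lost its call with all 4 libraries when trends with gene length and GC content were removed (log2 fold change 0.68, edgeR adjusted p = 0.0519).

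Other adaptors and ligands did not pass in the fit as reported. *Shc1*, the widely expressed relative of *Shc3*, had the highest log2 fold change of the 30 genes with 1.03 ± 0.28 (SE, edgeR adjusted p = 0.0645). With all 4 libraries it was called with a replicate block (edgeR adjusted p = 0.0325), with the block and the length and GC correction (0.0161), with library size only (0.0298) and without a filter (0.0235). *Dok6*, an adaptor of RET, had the lowest with -0.88 ± 0.29 (SE, edgeR adjusted p = 0.117, DESeq2 adjusted p = 0.0482). It was called lower with a replicate block (edgeR adjusted p = 0.0229) and without a filter (0.00172). Its log2 fold change was -0.37 with the length and GC correction (edgeR adjusted p = 0.488), -0.37 without WT replicate 1 (0.206) and -1.29 without WT replicate 2 (5.14e-10). *Ntf5* had 0 reads in WT and 1 and 4 in KO, *Nrtn* had 0 and 4 in WT and 0 and 6 in KO, and *Artn* had 1 and 1 in WT and 0 and 4 in KO. *Gfra3*, which encodes the co-receptor for artemin, had 0 reads in all 4 libraries.

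**Figure D4:**
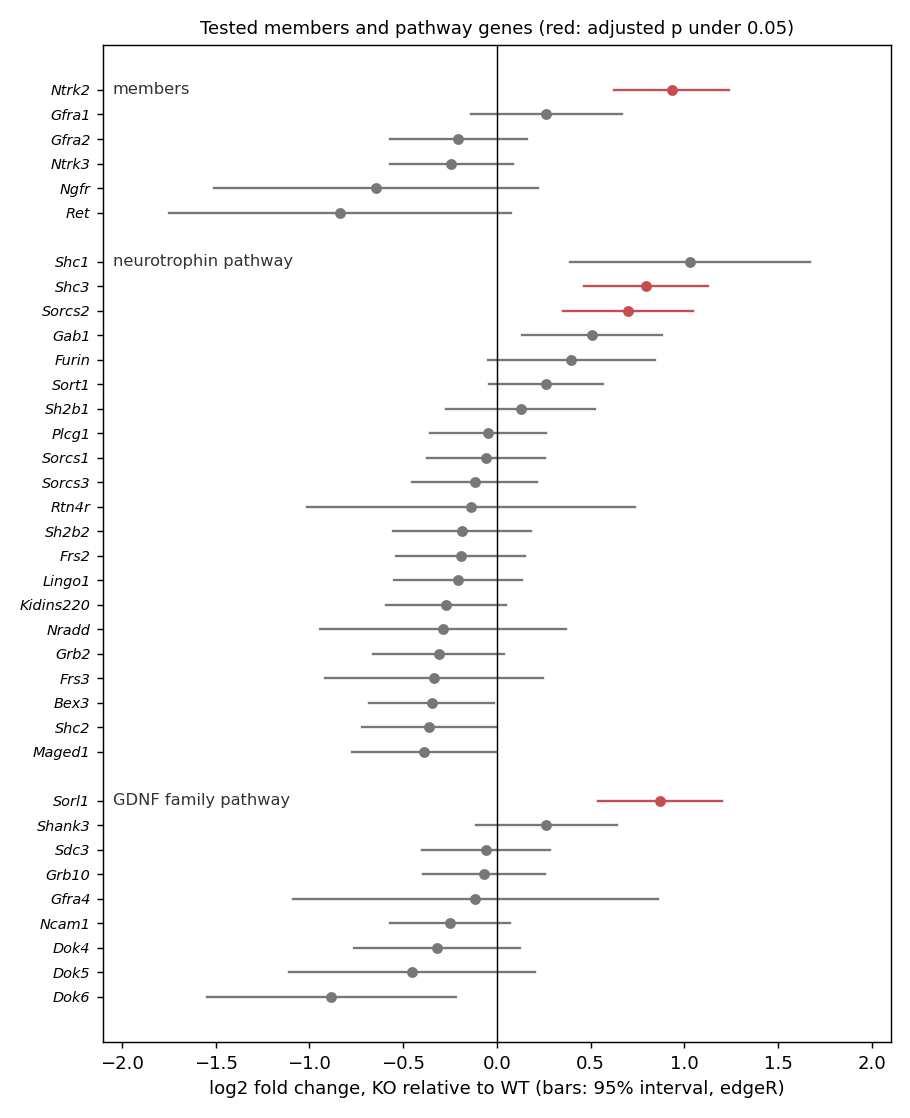
Log2 fold change of KO relative to WT (horizontal axis) with its 95% interval for the 6 tested receptors and the 30 tested genes of the pathway lists, in red where the edgeR adjusted p is under 0.05. *Ntrk2* at 0.93 is the only one of the 6 tested receptors whose interval leaves out 0, and *Sorl1*, *Shc3* and *Sorcs2* are the called genes of the lists.

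Among all tested genes, the pattern of *Ntrk2* over the 4 libraries was most closely matched by *Dhrs4*, a dehydrogenase/reductase gene, with 45 and 54 reads in WT against 85 and 94 in KO, and by *Gm37297*, with 25 and 30 reads in WT against 50 and 52 in KO. Their Euclidean distances from *Ntrk2* were 0.0404 and 0.0438 on the log2 CPM scale after each gene was centred on its mean. Neither gene was called (edgeR adjusted p = 0.104 and 0.168).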

How the data were processed

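RNA sequencing of tdTomato-positive cells, enriched by fluorescence-activated cell sorting from E16 embryos, was available as 4 libraries, 2 per genotype. Values were used as the authors deposited them, as raw counts of reads per gene without normalization. Per the submitters' processing notes, CASAVA 1.8.2, STAR 2.5.2a and featureCounts 1.5.0-p1 were used with mm10 (GRCm38), the build of the annotation used here. Annotation release, read length and strand handling are not given in the sources used here, and without strand, reads of a gene and an antisense partner cannot be told apart.

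Of the 55573 identifiers, 55480 matched GENCODE M21. After edgeR's filter on low expression and TMM normalization, the quasi-likelihood test of edgeR 4.0.16 (with limma 3.58.1 under R 4.3.3) was run over the whole table with genotype as its single factor. P-values were adjusted over the 16832 tested genes after Benjamini and Hochberg, with calls at 0.05. Standard errors and 95% intervals were derived from the test statistic. Levels per kilobase used merged exons. Counting intervals and the limit of 3 reads cover counting error only. Promoter windows came from RefSeq (GRCm38.p6).

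Genes named were the 9 members, called genes of the pathway lists, missing ligands and receptors of the families, markers at 0 (some genes of these kinds are not reported here), and for each called member the 2 genes of nearest pattern. *Shc1*, *Dok6*, the other marker genes and the genes within *Ntrk2* and *Bdnf* were picked once their values were known. The members and lists were chosen with earlier results of these data known. Alternatives were DESeq2 1.42.0, limma-voom, other normalizations, filters and thresholds, the replicate number as a block, removal of trends with length and GC content of genes (mgcv 1.9.3), and each library left out in turn. The procedures were tested on simulated data.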

Additional observations from a re-analysis of the deposited data

How the results depend on the processing

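*Ntrk2* kept its direction and its call in all 14 alternatives, with a log2 fold change from 0.89 to 1.05 (edgeR adjusted p at most 0.0234, without 1 library), and none of the 6 receptors tested changed sign in these 14. The 3 ligands were not called without a filter, and other alternatives are not given for them. The largest value came with scaling by library size only, which also moved the median of all genes from -0.03 to 0.08. *Ret* was called lower without WT replicate 1 (log2 fold change -1.13), which made the count of members lower in KO range from 0 to 1 when each library was left out, a fit in which the lone library is assumed to vary like the other genotype. Labels give both genotypes replicates 1 and 2, whose deviations correlated at 0.121. Nothing else in the sources pairs them, and whether they share more than a number is not known. With a replicate block in the fit, 5 pathway genes were called higher and 1 lower, and 619 of all genes lower. With the length and GC correction 207 of all genes were lower, and with that correction and the block together 1 pathway gene was lower, and of all genes 1873 were higher and 607 lower. DESeq2 called 1 pathway gene and 247 of all genes lower, the fit without a filter 1 and 573, and the fit with at least 10 counts in every library 52 of all genes. Under an adjusted p of 0.01, 1 pathway gene and 724 of all genes were higher and 16 lower, and under 0.1, 318 of all genes were lower. Leaving out single libraries gave 0 to 5 pathway genes higher and 0 to 4 lower, and 900 to 2578 of all genes higher and 51 to 2180 lower. The share of higher genes among all called was 92.8% as reported, 83.5% with DESeq2, 75.8% without a filter, 72.4% with the block, 75.5% with the block and the correction, and 66.5% and 48.2% without WT replicate 1 and 2. The prior degrees of freedom were infinite without a filter, with the correction and without either WT library. The cause of these shifts was not tested. With 2 libraries per genotype no sample could be tested for standing apart, and the ligands did not pass the filter on low expression at this depth.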
